A study of Mus musculus with 8 samples.

Results

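Astrocyte marker genes were followed in cultures labelled as primary microglia, the resident macrophages of the brain, as a gauge of cells other than microglia. The 10 genes were Gfap, Slc1a3, Slc1a2, Aqp4, Aldoc, Aldh1l1, S100b, Gja1, Sox9 and Fabp7, and their probes were found through the RefSeq accession that the array files give for each probe. All 10 were on the array, with 15 probes among 55577 usable ones, and each gene was read from its brightest probe. Of these genes, 10 could be tested between the 2 sets of arrays, among 19536 genes, and 8 between treatments, among 19114 genes.

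The cells came from C57BL/6 mice and were exposed for 3 h to 1 of 4 treatments: Fc-fused Ecrg4(133-148) and Fc-fused Ecrg4(71-132), which carry residues 133 to 148 and 71 to 132 of the secreted precursor protein Ecrg4, an antibody Fc fragment alone, or PBS. The 3 proteins were given at 20 µg/ml. Each treatment had 2 one-colour Agilent arrays, numbered set 1 and set 2 in the labels, so that each set holds 4 arrays, 1 per treatment. The age of the mice and the way the cells were isolated are not given in the sources used here, and no label ties a set to a culture, an animal or a day. The p-values therefore measure only the spread between these samples, which may be technical.

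Levels are log2 signals with the 75th percentile of each array at 0. That percentile was a signal of 494.6 to 809.3, no spot was saturated, and 24211 to 29423 probes per array were well above background by the scanner software's flag. All arrays shared 1 slide, with a slide column for each set, so set and column cannot be told apart. Precision is limited by there being 8 arrays.

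Astrocytes are the glia that take up glutamate, buffer potassium and water, and couple to each other through gap junctions. Dividing astrocytes form the bed layer of many glial cultures from which microglia are harvested, and astrocyte transcripts in a microglial preparation are commonly read as a sign of carry-over. Gfap is the intermediate filament of astrocytes; Slc1a3 and Slc1a2 are their glutamate transporters GLAST and GLT-1; Aqp4 is the water channel of their endfeet. Several of the other markers are also made elsewhere, which matters for reading a mixed culture. In a bulk RNA sample, fewer cells of a type and less RNA per cell cannot be told apart.

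The 10 genes split into a pair of patterns between the sets. Gfap, Slc1a3, Slc1a2, Aqp4, S100b, Gja1 and Sox9 were well above background on all 4 arrays of set 1 and on 2 or fewer arrays of set 2. Fabp7, Aldoc and Aldh1l1 were well above background on all 8 arrays and were lower in set 1. In the fit of set 1 against set 2 with treatment as a block, 7 of 10 genes were called higher, where 27.3% of all genes tested were, and 3 of 10 were called lower, where 34.9% of all genes were. In total 62.2% of all genes were called between the sets, so a call alone sets no gene apart. Of all calls 43.9% were higher in set 1, and 56.4% were when the arrays were centred on their medians instead. The 7 higher genes entered the test through set 1 alone and had to differ, so their count, and the adjusted p given with each below, are a description and no support. Normexp background correction, which adds an offset to every signal, gave smaller differences for these 7 genes, from 0.50 for Slc1a2 to 4.44 for Gfap. The median of set 1 minus set 2 was 3.83 over the 10 genes and -0.07 over all genes tested.

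**Figure D1:**
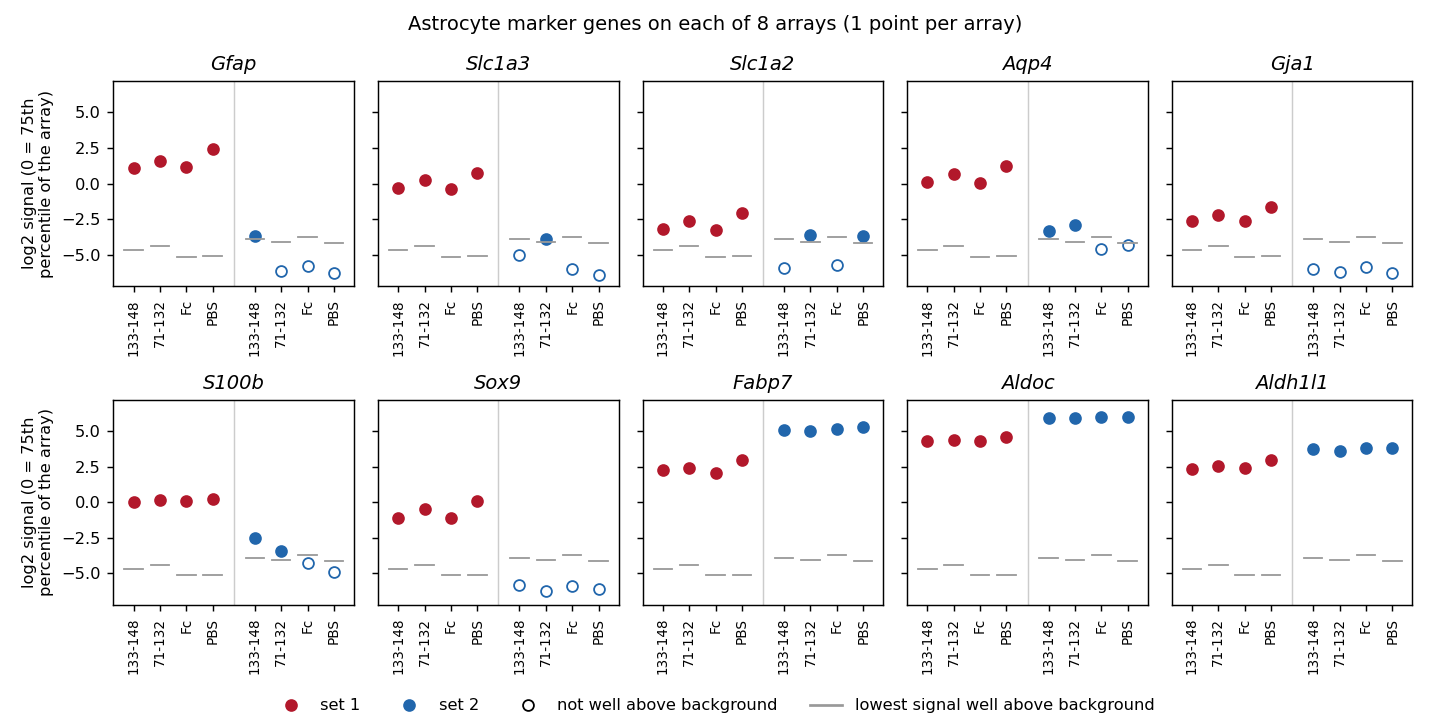
Log2 signal of each of the 10 astrocyte marker genes on each of the 8 arrays (y axis, 0 at the 75th percentile of the array), with set 1 in red on the left and set 2 in blue on the right of each panel. Open points were not well above background and grey bars mark the lowest signal well above background on that array. Gja1 and Sox9 are open on all 4 arrays of set 2, and Fabp7, Aldoc and Aldh1l1 are filled on all 8 and higher in set 2.

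Gfap, the intermediate filament gene, had levels of 1.11 with Ecrg4(133-148), 1.59 with Ecrg4(71-132), 1.14 with Fc and 2.43 with PBS in set 1, against -3.66, -6.13, -5.80 and -6.23 in the same order of treatments in set 2. Every set 1 array lay above every set 2 array. In set 2 the Ecrg4(133-148) array alone was well above background, and it was the highest of the 4. The fitted difference was 7.02 ± 0.67 (SE; adjusted p = 0.00113), and it was 5.46 when each dim signal was raised to the lowest signal well above background on its array. The array carries 2 further Gfap probes, both well above background on all 4 arrays of set 1 and on none of set 2, with differences of 5.47 and 2.74. All 3 probes therefore gave the same direction and differed in size.

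Slc1a3, the glutamate transporter GLAST, had levels of -0.33 with Ecrg4(133-148), 0.23 with Ecrg4(71-132), -0.36 with Fc and 0.77 with PBS in set 1. In set 2 its levels were -5.03, -3.89, -6.00 and -6.41 in that order, and the Ecrg4(71-132) array was the only one well above background. The sets did not overlap, with a difference of 5.41 ± 0.54 (SE; adjusted p = 0.00128), or 3.99 with dim signals raised to the floor. Slc1a2, the transporter GLT-1 that carries most glutamate uptake in the adult forebrain, had levels of -3.15, -2.62, -3.26 and -2.06 in set 1, against -5.88, -3.58, -5.67 and -3.67 in set 2. Its sets came closest to each other: the lowest set 1 array, Fc at -3.26, lay just above the highest set 2 array, Ecrg4(71-132) at -3.58. The difference of 1.93 ± 0.32 (SE; adjusted p = 0.0064) was 0.95 with dim signals at the floor and 0.50 with normexp background correction. The other 2 Slc1a2 probes were not well above background on any array and give no direction.

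Promoter sequence is shown for Gfap and Slc1a3, which moved together between the sets, and for Fabp7, which moved the opposite way, so that the regions before their starts can be set side by side. Each line is the 250 bases before the gene's start, 5′ to 3′ on the gene's strand, from RefSeq on GRCm38.p6: Gfap at chr11:102897201-102897450 (minus strand), Slc1a3 at chr15:8710808-8711057 (minus strand) and Fabp7 at chr10:57784673-57784922 (plus strand). Capitals mark a match to the STAT-type motif TTCNNNGAA.
Gfap: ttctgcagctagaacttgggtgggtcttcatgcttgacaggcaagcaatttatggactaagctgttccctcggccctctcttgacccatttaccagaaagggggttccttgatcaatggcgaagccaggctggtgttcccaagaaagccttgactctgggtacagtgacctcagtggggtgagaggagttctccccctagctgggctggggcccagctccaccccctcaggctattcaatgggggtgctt
Slc1a3: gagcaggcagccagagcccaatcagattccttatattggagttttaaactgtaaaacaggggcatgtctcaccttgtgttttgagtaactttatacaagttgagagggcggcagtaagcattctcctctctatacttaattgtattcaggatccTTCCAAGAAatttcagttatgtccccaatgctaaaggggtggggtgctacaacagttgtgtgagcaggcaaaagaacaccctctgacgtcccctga
Fabp7: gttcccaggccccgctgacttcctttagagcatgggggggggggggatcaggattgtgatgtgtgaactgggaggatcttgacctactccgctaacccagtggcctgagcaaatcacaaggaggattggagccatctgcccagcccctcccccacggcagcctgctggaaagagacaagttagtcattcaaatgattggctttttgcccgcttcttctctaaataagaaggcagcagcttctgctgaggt
Both strands were searched for 2 motifs named for factors that act in glial development; no match overlapped another. The STAT-type motif TTCNNNGAA was found in 2 of 9 promoter entries of the genes, those of Slc1a3 and Aldoc, and in 7.02% of 32851 promoters of the same length. The Slc1a3 match begins 96 bases before the start. The SOX core ACAATG, present in 10.7% of all promoters, was not in these windows. The table held promoters of 8 of the 10 genes.

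The membrane and junction genes followed the same pattern. Aqp4, the water channel, had levels of 0.15 with Ecrg4(133-148), 0.67 with Ecrg4(71-132), 0.08 with Fc and 1.24 with PBS in set 1, against -3.35, -2.87, -4.58 and -4.27 in set 2. In set 2 both Ecrg4 arrays were well above background and the Fc and PBS arrays were not. The sets did not overlap, and the difference was 4.30 ± 0.39 (SE; adjusted p = 0.000991). Its other probe differed by 3.96. Gja1, which encodes the gap junction protein connexin 43, had levels of -2.64, -2.18, -2.62 and -1.64 in set 1 in the same order, and was not well above background on any array of set 2. It was at least 3.22-fold higher in set 1 (adjusted p = 0.000454), a bound that sets the mean of set 1 against the floor of set 2; the measured means were -2.27 in set 1 and -6.07 in set 2. That bound is 1.69 on the log2 scale and rests on the background subtraction in the files: with normexp the fitted difference was 1.40, below it.

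Sox9, a transcription factor that marks the astrocyte lineage, had levels of -1.09 with Ecrg4(133-148), -0.46 with Ecrg4(71-132), -1.08 with Fc and 0.08 with PBS in set 1. No set 2 array was well above background. Sox9 was at least 9.99-fold higher in set 1 (adjusted p = 0.000265), with measured means of -0.64 in set 1 and -5.99 in set 2; the bound is 3.32 on the log2 scale, and the fitted difference with normexp was 2.51. S100b, a calcium-binding protein of astrocytes that oligodendrocyte-lineage cells also make, had levels of -0.01, 0.15, 0.05 and 0.23 in set 1 and of -2.48, -3.42, -4.23 and -4.93 in set 2, in the same order of treatments. Its set 1 arrays lay within 0.24 of each other, a much narrower spread than the 1.32 of Gfap, while its set 2 arrays spanned 2.46. Both Ecrg4 arrays of set 2 were well above background, and the difference between the sets was 3.87 ± 0.46 (SE; adjusted p = 0.00217).

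The 3 remaining genes went the opposite way. Fabp7, a fatty acid binding protein of radial glia and immature astrocytes, had levels of 2.25 with Ecrg4(133-148), 2.42 with Ecrg4(71-132), 2.05 with Fc and 2.94 with PBS in set 1, against 5.03, 5.02, 5.16 and 5.26 in set 2. Every set 2 array was above every set 1 array. Fabp7 averaged 2.42 ± 0.38 in set 1 and 5.12 ± 0.11 in set 2 (SD, n = 4 each), a difference of -2.70 ± 0.14 (SE; adjusted p = 0.000231), or 6.49-fold lower in set 1. Aldoc, the brain form of the glycolytic enzyme aldolase, averaged 4.38 ± 0.14 in set 1 and 5.93 ± 0.03 in set 2, and was 2.94-fold lower in set 1 (adjusted p = 0.000169). Aldh1l1, a folate enzyme used as a broad astrocyte marker, averaged 2.56 ± 0.28 in set 1 and 3.73 ± 0.10 in set 2, and was 2.25-fold lower in set 1 (adjusted p = 0.00105). These are the 3 genes measured on every array, so no bound is involved. The summed signal of the 10 genes, which weights the brightest probes most, ran from 34.9 to 51.7 in set 1 and from 105 to 114 in set 2, opposite in direction to the 7 genes above.

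**Figure D2:**
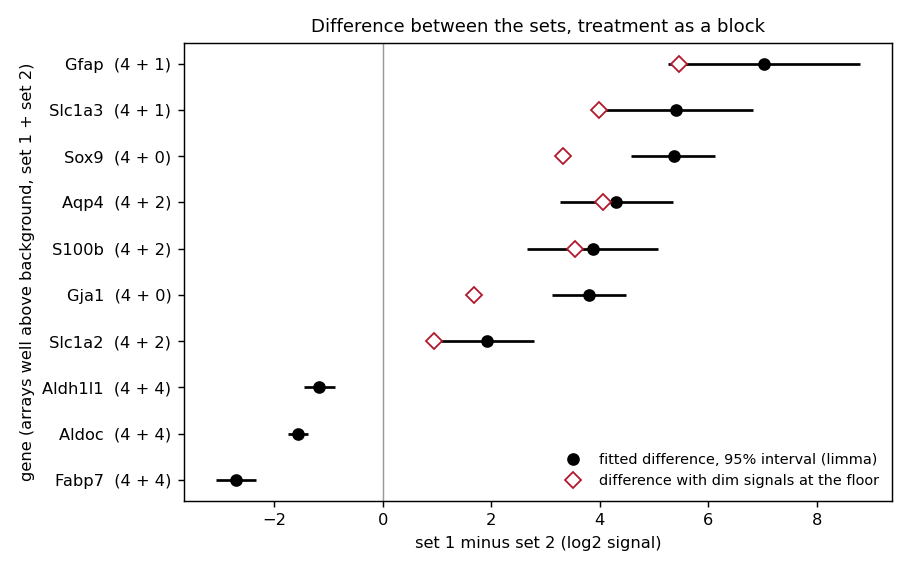
Set 1 minus set 2 for each gene on the log2 scale, as fitted by limma with treatment as a block (black, with the 95% interval) and, for genes dim in set 2, with each dim signal raised to the lowest signal well above background on its array (red diamonds). The numbers beside each gene count its arrays well above background in set 1 and set 2. Gfap is farthest to the right at 7.02 and Fabp7 farthest to the left at -2.70. The intervals of Slc1a2, Gja1 and Sox9 lie wholly to the right of their floor values.

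Further lists of astrocyte genes were examined to see which pattern they follow. Of the genes for ions, water and coupling, 6 of 6 tested were called higher in set 1, where 27.3% of all genes tested were. All 6 entered the test through set 1 alone and had to differ, and the list's median was 3.79. Mlc1, an endfoot membrane protein, averaged 3.29 in set 1 with 1 array of set 2 well above background, again Ecrg4(133-148), and differed by 7.77 ± 1.25 (SE; adjusted p = 0.00567). Kcnj10, the potassium channel Kir4.1, was higher in set 1 by 4.35 ± 0.48 (SE; adjusted p = 0.0017). Atp1b2, a sodium pump subunit, was higher by 7.47 ± 0.85 (SE; adjusted p = 0.00189). The summed signal of this list was 12.5 to 27.1 in set 1 and 0.116 to 1.06 in set 2.

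Of the genes for glutamate and amino acid handling, 3 of 4 were called higher in set 1 and 1 lower, with a median of 0.94. The lower one was Glul, glutamine synthetase, at -1.06 ± 0.06 (SE; adjusted p = 0.00027), while the transporter Slc38a3 was at least 3.9-fold higher. Of the transcription factors of astrocyte identity, 5 of 8 were called higher and none lower (median 1.59). Sox2 was at least 2.92-fold and Id4 at least 4.86-fold higher in set 1. Each bound in these lists rests on the background subtraction used, as for Gja1 and Sox9. Of the secreted proteins, receptors and enzymes, 10 of 14 were called higher and 3 lower (median 3.23): the growth factor receptor Fgfr3 was higher by 2.52 ± 0.11 (SE; adjusted p = 0.000162), and Mfge8, a bridging protein for phagocytosis, was lower, at -1.20 ± 0.06 (SE; adjusted p = 0.000205). Of the genes raised in reactive astrocytes, several of which microglia also make, 7 of 11 were called higher and 3 lower (median 2.68). Osmr, the oncostatin M receptor, was at least 15.6-fold higher in set 1, and the filament gene Vim was lower there, at -0.34 ± 0.06 (SE; adjusted p = 0.00617). In these 5 lists more genes were called higher than lower in set 1. Over all genes tested, 27.3% were called higher and 34.9% lower. None was called lower among the transcription factors, nor among the ion and water genes, which could only come out higher. Many of the other genes called higher also entered the test through set 1 alone, and these counts are a description.

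Markers of other cell types moved with the sets as well. The fibroblast and meninges list had 7 of 7 tested genes higher in set 1, with a median of 6.14 and a summed signal of 24.0 to 52.2 in set 1 against 0.474 to 0.682 in set 2. Col1a2, a collagen chain, averaged 4.05 in set 1 and -2.08 in set 2. The ependyma list had 3 of 3 higher, and its summed signal was 1.49 to 3.95 in set 1 against 0.0536 to 0.119 in set 2; Foxj1, the master factor of motile cilia, was at least 9.46-fold higher in set 1. The oligodendrocyte precursor list had 4 of 4 higher (median 2.97), with Olig1 at least 5.86-fold higher. The bounds for Foxj1 and Olig1 also rest on the background subtraction used. The neuron list had 5 of 6 higher and 1 lower (median 2.76), the oligodendrocyte list 4 of 9 higher and 3 lower (median 0.21), and the endothelium list 1 of 4 higher and 2 lower (median -0.17). The 1 pericyte gene tested was lower, and of 3 peripheral myeloid genes 2 were higher and 1 lower. Over all genes tested, 27.3% were called higher in set 1 and 34.9% lower. All the higher neuron and ependyma genes entered the test through set 1 alone and had to differ, as did many of the fibroblast and precursor genes. Snap25, the neuron gene measured on every array, was the lower one, at -0.96. These counts are a description. The part of each of these cell types in the astrocyte marker values was not tested.

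The labelled cell type was checked in the same way. All 13 microglial markers were well above background on every array of set 1, and 11 or 12 were on each array of set 2. Their summed signal was 822 to 874 in set 1 and 648 to 758 in set 2, so it differed far less than the fibroblast or ependyma sums. Within the list 9 genes were called higher in set 1 and 3 lower, where 27.3% and 34.9% of all genes tested were. Of the higher ones, Sall1 and Tmem119 entered the test through set 1 alone and had to differ. Csf1r, the growth factor receptor that microglia depend on, did not pass the test (0.01 ± 0.06, SE; adjusted p = 0.896), and Trem2 was lower in set 1 at -0.37 ± 0.05 (SE; adjusted p = 0.00312). Fcrls was higher in set 1 by 4.04 ± 0.08 (SE; adjusted p = 5.7e-05). Cx3cr1, the fractalkine receptor, is named here after its values were seen: it averaged 4.68 in set 1 and -1.95 in set 2. The sets thus differed in some microglial identity genes as well as in the astrocyte markers, where 62.2% of all genes were called between the sets.

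**Figure D3:**
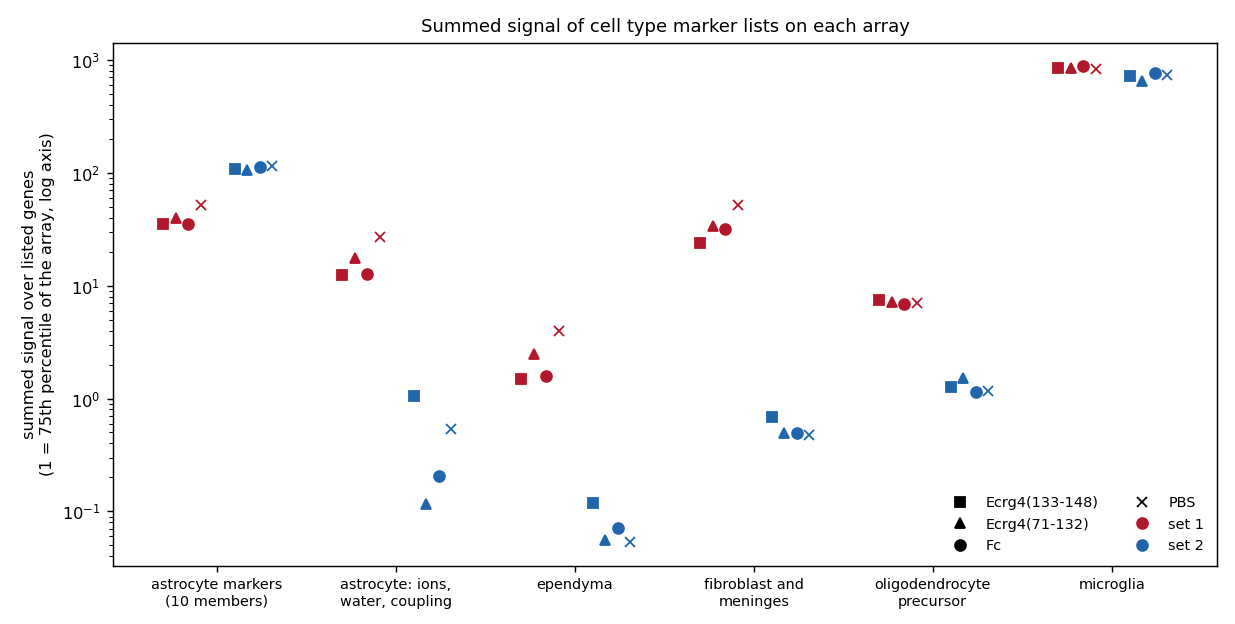
Summed linear signal over the listed genes of 6 cell type lists on each array (y axis on a log scale, 1 at the 75th percentile of the array), with set 1 in red and set 2 in blue and a symbol per treatment. Set 1 and set 2 are separated by more than 10-fold for the ion and water genes, ependyma, and fibroblast and meninges, while the microglia sums of 648 to 874 lie close together.

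Treatments were then compared, first over both sets and then within each. None of the 8 tested genes was called in any of the 6 comparisons between treatments by limma, and nor was any other gene: 0% of 19114 genes were called in each, without and with the set as a block. At an unadjusted p under 0.05, 0 of the 8 genes passed in each comparison without the block, and 51 to 932 of all genes did. With the block, 355 to 4529 of all genes passed that unadjusted threshold, and among the markers only Slc1a2 did, in 4 of the 6 comparisons, with values that rest partly on arrays where it was not well above background. Gja1 and Sox9 were not tested between treatments, since no treatment had both arrays well above background.

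How far the data limit a treatment effect differs between genes. For Aldoc, Ecrg4(71-132) minus Fc was 0.00 with a 95% interval of -0.26 to 0.26 with the set as a block, and Ecrg4(133-148) minus Fc was -0.03 with an interval of -0.29 to 0.22. For Aldh1l1 the first interval was -0.47 to 0.34, and for Fabp7 it was -0.41 to 0.63. Those 3 genes had the narrowest intervals of the 8. For Gfap, Ecrg4(71-132) minus Fc was 0.06 with an interval of -2.45 to 2.57 with the block and of -10.95 to 11.07 without it, so that even large effects were not detectable with these arrays.

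Within set 1, where all 10 genes were well above background on every array, the 2 highest arrays were the same for every gene. Fc and Ecrg4(133-148) came below them in either order. PBS was the highest array for 10 of 10 genes, where it was for 18.1% of 19192 genes measured on the 4 arrays, and Ecrg4(71-132) was the next highest for 10 of 10, an order held by 6.17% of all genes. With median centring of the arrays the order held for 8 of 10, Aldoc and S100b being the exceptions. It held for all 10 with quantile normalization, with normexp background correction and with the deposited table. The deposited table is the same signal shifted by 0.2487 to 0.268 per array of set 1, so it could hardly change the order. Fc was over 2-fold below PBS in 5 of the 10 genes, against 1.54% of all genes. There is 1 array per treatment in a set, so these differences have no replicate check.

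The distance from the PBS array was alike in 6 genes, which were grouped after their values were seen. In Gfap, Slc1a3, Slc1a2, Aqp4, Gja1 and Sox9 the signal in set 1 was 0.399 to 0.500 of the PBS array with Ecrg4(133-148), 0.558 to 0.689 of it with Ecrg4(71-132) and 0.409 to 0.507 of it with Fc. Fabp7, Aldh1l1 and Aldoc lay nearer to it, at 0.619 to 0.811, 0.695 to 0.855 and 0.540 to 0.818 of the PBS array in the same order. S100b was nearest, at 0.846, 0.949 and 0.884. The spread over the 4 arrays thus differed among the markers, with Gfap the widest and S100b the narrowest of the 10.

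Other lists showed the PBS array of set 1 high to different degrees. It was the highest for 6 of 6 ion and water genes, with a median Fc minus PBS of -1.14, for 3 of 3 ependymal genes (median -1.40) and for 7 of 7 fibroblast and meninges genes (median -0.78). The median of Ecrg4(133-148) minus PBS was -1.14, -1.46 and -1.23 in the same 3 lists. The PBS array was also the highest for 4 of 4 glutamate and amino acid genes and 8 of 8 transcription factors. It was so for 11 of 14 genes for secreted proteins, receptors and enzymes, and for 5 of 11 reactive astrocyte genes. Among 13 microglial markers it was the highest for 2, with a median Fc minus PBS of 0.08. Over all genes measured on the 4 arrays of set 1 it was the highest for 18.1%. The PBS array of set 1 also had the most probes well above background, 29423, against 27386 with Ecrg4(133-148), 25790 with Ecrg4(71-132) and 29163 with Fc. The part of this array, of cell composition or of treatment in the order was not tested.

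The full order of set 1 did not appear in set 2 among the genes that were measured on every array. PBS was again the highest array for Fabp7 and Aldh1l1, by small margins, while Fc was the highest for Aldoc. Ecrg4(71-132) was not the next highest for any of these genes, as it lay below Fc in each. The 3 genes measured on every array differed from their PBS array in set 2 by -0.23 to -0.03 with Ecrg4(133-148), by -0.24 to -0.04 with Ecrg4(71-132) and by -0.10 to 0.03 with Fc. Over the 8 tested genes, the median of Fc minus PBS was -1.01 in set 1 and 0.00 in set 2, and that of Ecrg4(133-148) minus PBS was -0.89 in set 1 and 0.45 in set 2. The comparisons against PBS share the PBS arrays. Between the fragments, which share none, the median of Ecrg4(133-148) minus Ecrg4(71-132) was -0.33 in set 1, with 8 of 8 genes lower, and 0.01 in set 2, with 3 of 8 lower. These set 2 medians and counts rest partly on genes that were well above background on 2 or fewer arrays of set 2. For those genes they cannot show whether the order was absent.

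**Figure D4:**
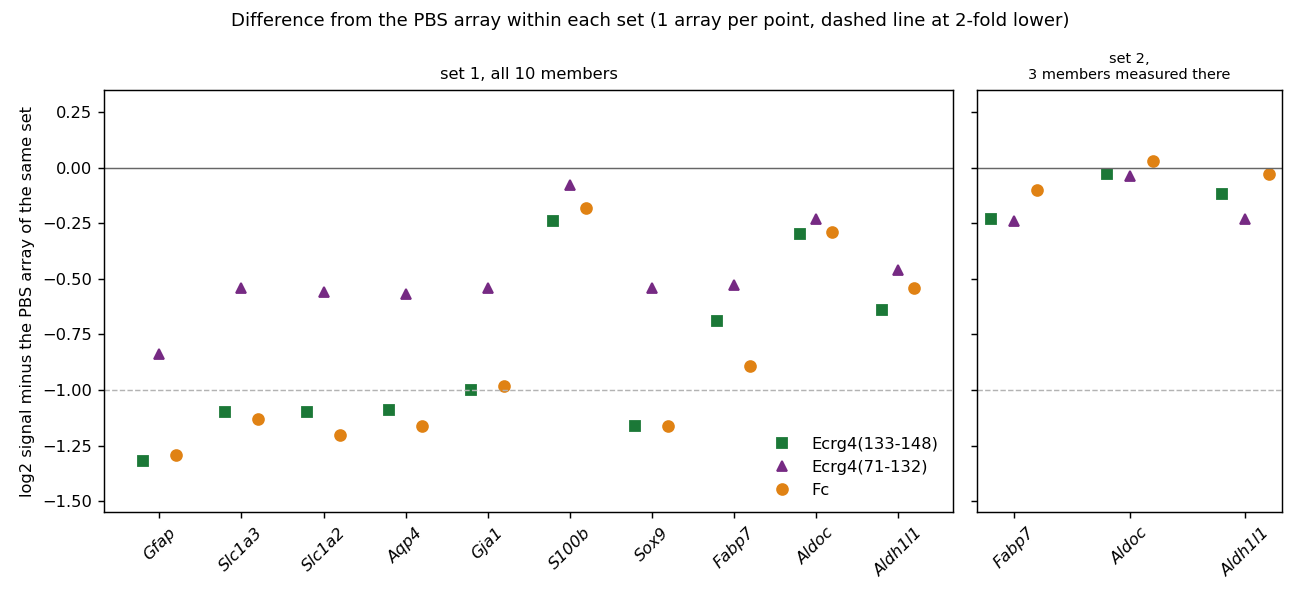
Log2 signal minus the PBS array of the same set for each gene, with 1 array per point, in set 1 (left, all 10 genes) and set 2 (right, the 3 genes well above background on all arrays). All points of set 1 lie below 0 and Ecrg4(71-132) is the uppermost of the 3 treatments for every gene as scaled here (not for Aldoc and S100b with median centring); in set 2 the points lie between -0.24 and 0.03.

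Genes with the most similar profiles were sought among named genes outside the 10, by the root mean square difference of centred log2 levels. Over the 8 arrays, the mean profile of Aldoc, Aldh1l1 and Fabp7 was matched most closely by Stk39, at a difference of 0.076, then by Osbpl5, Mapre3, Chpf and Slc22a17, at up to 0.132, out of 11558 genes. Removing the mean of each set leaves the differences among its single arrays, with 1 array per treatment. With that mean removed, the closest were Ndn at 0.024, then Syt6, Pih1d2, Kctd17 and Cnih2, at up to 0.059. For the 7 other markers the profile over the 4 set 1 arrays was used, a rule added after the data were seen; Kcnk10, Tspan6, Notch3, Ntrk2 and Tagln3 came closest among 13081 genes, at 0.016 to 0.025. Ntrk2, the receptor of BDNF, is among the astrocyte genes listed above, and its levels in set 1 were 1.69 with Ecrg4(133-148), 2.14 with Ecrg4(71-132), 1.63 with Fc and 2.64 with PBS.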

How the data were processed

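Total RNA of 8 samples was labelled with Cy3 and hybridised to one-colour Agilent arrays, per the labels' protocols. The deposited scanner files hold each spot's processed intensity, not logged. Feature Extraction by Agilent, version 11.0.1.1, is the tool in the submitters' processing notes. The deposited table holds log2 values, which equal log2 of those intensities minus 1 constant per array (SD of the difference 0.0), with the 75th percentile of each column at about 0 and column medians of -4.48 to -4.21; no source used here says how that constant was set. No per-sample column was left unmapped.

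From the scanner files, the log2 signal was scaled in R 4.3.3 by subtracting the array's 75th percentile over non-control spots. Outlying spots were dropped, spots of a probe were averaged, and a probe counted as well above background where all its spots did. Of 55681 probes, 28026 were named through unversioned RefSeq accessions in a table of GRCm38.p6, 27655 kept the name in the files, and 104 were left out as outlying. Limma 3.58.1 was fitted to all genes, with Benjamini-Hochberg adjustment and a threshold of 0.05. The treatment fits had 1 mean per treatment, 4 residual degrees of freedom and genes that were well above background in both sets for some treatment. The set fit had treatment as a block, 3 residual degrees of freedom and genes well above background on all 4 arrays of at least 1 set (2544 of them through 1 set alone). That filter was chosen after Gja1 and Sox9 had been seen to fail the other. A gene not well above background on any array of a set has a bound: the mean of the bright set against the mean, per array, of the higher of the lowest signal well above background and its own. Such a bound holds for the files' own background subtraction and can fail under another.

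Across genes, the set 1 minus set 2 differences of any pair of treatments had correlations of 0.78 to 0.86 (6 pairs), so the set numbers, taken from the titles, pair the samples.

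The genes and the lists were chosen with earlier results of these data known. The rule named the 10 genes, from each list the 3 brightest and up to 4 called genes, of which the text gives some, and the 5 genes with the most similar profile. Alternatives covered background correction, scaling, filters, probe averaging, the deposited table, moderation, the set block and each array left out. Normexp used the median spot signal and an offset of 50.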

Additional observations from a re-analysis of the deposited data

Results flagged for a closer look

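In the comparison of Ecrg4(133-148) with PBS, 2 of the genes moved by over 2-fold in opposite directions in the 2 sets, with 1 array per treatment in each. Gfap was lower with Ecrg4(133-148) in set 1, at a log2 difference of -1.32, and higher in set 2, at 2.57. Slc1a3 was lower in set 1, at -1.10, and higher in set 2, at 1.38. The difference between the sets was not tested, since each set holds 1 array per treatment. In set 2 the PBS array was not well above background for either gene, and the Ecrg4(133-148) array was for Gfap and not for Slc1a3. That Gfap signal, -3.66, was near the lowest signal well above background on its array, -3.91. The other 2 Gfap probes were not well above background there, at -4.66 and -5.09, against -5.23 and -6.39 with PBS. Groups of 2 arrays are too small for a test of single outlying arrays.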

How the results depend on the processing

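Between the sets, Fabp7, Aldoc and Aldh1l1, measured on all arrays, kept their direction and call under every alternative run and with each array left out. The other 7 genes also stayed higher wherever they were tested, but entered through set 1 and had to differ. Their normexp differences were 4.44 for Gfap, 3.21 for Slc1a3, 0.50 for Slc1a2, 2.77 for Aqp4, 2.41 for S100b, 1.40 for Gja1 and 2.51 for Sox9, the last 2 under the bounds given for them. The all-array filter leaves out the 7 genes dim in set 2, so the count called higher was 0 there and the median was -1.56, and the treatment filter leaves out Gja1 and Sox9, with a median of 2.90. Normexp background correction gave a median of 1.91, and a floor at the lowest signal well above background, an alternative chosen after seeing the data like the treatment filter, gave 2.50; the cause of the first was not tested. Without a filter on dim probes 18666 genes were called, against 12156, with more genes tested. Csf1r ran from -0.04 to 0.04 with each array left out, and passed the test at 0.18 with quantile normalization and 0.20 with the mean of its probes. Vim missed the threshold with median centring (-0.22). Leaving out each array, the median of the genes ran from 3.48 to 4.14 and the count of all genes called from 9789 to 11817.

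For the treatments, no alternative called any of the genes. Using the set as a replicate block, where the sets pair the samples, left the calls of all comparisons at 0 genes and changed no other call. The median of Ecrg4(71-132) minus Fc was 0.28, and it was 0.11 with normexp, 0.35 with quantile normalization and with median centring, 0.00 with the all-array filter and 0.16 with the floor; the cause was not tested. Median centring moved the median of all genes to 0.12 for Fc, 0.16 for Ecrg4(71-132) and 0.14 for Ecrg4(133-148) against PBS. Leaving out single arrays without the block removes the balance of the sets, and the medians then ran from -1.65 to 0.60 for Ecrg4(133-148) against Ecrg4(71-132), -1.28 to 2.07 for Ecrg4(133-148) against Fc, -0.51 to 2.58 for Ecrg4(71-132) against Fc, -1.97 to 0.93 for Ecrg4(133-148) against PBS, -1.45 to 1.87 for Ecrg4(71-132) against PBS and -2.36 to 0.66 for Fc against PBS. With the block they ran, in the same order, from -0.53 to 0.03, -0.05 to 0.53, 0.28 to 0.37 (0.36 without the set 1 Fc array), -0.65 to 0.34, -0.33 to 0.36 and -1.07 to 0.04. With the block and without the set 1 array of Ecrg4(71-132), 481 genes were called against Fc and 1077 against PBS; 1 was called without the set 1 Fc array and 3 without the set 1 PBS array, and otherwise 0, so the counts ran from 0 to 481 and from 0 to 1077. Signal over background limits the 7 genes dim in set 2, whose treatment values there rest on 2 arrays at most.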

Other observations

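In set 2, some genes had their highest value on the Ecrg4(133-148) array. Mlc1 was at -0.64 there, against -6.32 with Ecrg4(71-132), -4.58 with Fc and -6.39 with PBS. Atp1b2 was at -2.71, against -5.98, -6.06 and -6.46 in the same order. Dynlrb2, a dynein light chain of motile cilia from the ependyma list, was at -4.67, against -6.27, -5.92 and -6.33, where none of the 4 was well above background. The summed signal of the ion and water genes was 1.06 on this array, against 0.116, 0.205 and 0.541. Slc1a3, Aqp4 and Slc1a2 did not follow, their highest set 2 array being Ecrg4(71-132). With 1 array per treatment in the set, these values have no replicate check.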
